A study of Mus musculus with 3 samples.

Results

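Control tumour myeloid-derived suppressor cells (MDSCs) were compared with bone marrow neutrophils across every gene that reached 1 CPM (counts per 1000000 scaled counts) in either library. That filter kept 12590 of the 19723 genes counted in the series, and 87% of those kept are annotated as protein coding. At the edge of the filter, the 50 genes just inside reached 1.024 CPM in their higher library and the 50 just outside reached 0.997 CPM, on medians of 20 tumour and 7 marrow counts inside and 7 and 23 outside. The MDSCs came from 20 pooled tumours, were isolated by flow cytometry, and the hosts were female BALB/c mice, 6 to 8 weeks old; the labels call them control in one field and untreated in another, with no vehicle named. The neutrophils were sorted from the marrow of 5 pooled wild-type mice of the same strain, sex and age, and the remaining library held MDSCs pooled from 20 alisertib-treated tumours (alisertib blocks the mitotic kinase Aurora A). All sorts reached over 90% purity by the labels, which name neither the sort markers nor the tumour line.

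A neutrophil is built in the marrow in a fixed order. Promyelocytes make azurophil granules under early transcription factors, myelocytes leave the cell cycle while they make specific granules under C/EBP-epsilon, and later stages add gelatinase granules and the receptors used to leave the marrow and answer chemoattractants. Granulocytic MDSCs are neutrophil-like cells that gather in tumour-bearing hosts and restrain T cells, through arginine depletion and nitric oxide among other means.

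The control tumour MDSC library held 21959748 counts and the marrow library 21987097, with 17303 and 17349 genes detected. Counts were scaled with TMM factors, so that CPM values refer to the scaled total, and 3 counts, the floor used for a gene listed at 0, equal 0.154 CPM in the tumour library and 0.13 CPM in the marrow library. Calls of higher or lower needed an exact 95% interval of the tumour to marrow ratio that lay wholly at 2-fold or beyond. Each group is 1 library, so no difference has a replicate check, and the intervals cover counting error only. In sorted bulk cells, fewer cells of a type and less RNA per cell cannot be told apart.

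Of the 12590 genes, 2319 were called higher in tumour MDSCs (18.4%) and 2984 lower (23.7%), 5303 in all (42.1%). The shares of 18.4% and 23.7% are the background for every list count below. At a bound of 10-fold or more there were 374 higher genes (2.97%) and 355 lower genes (2.82%). The median log2 ratio over all 12590 genes was -0.17, the middle 50% of genes lay between -1.31 and 0.94, and 28% of genes differed by less than 1.5-fold. The genes called higher held 51.8% of the tumour library's counts and 12.5% of the marrow library's. The genes called lower held 6.98% of the tumour counts and 38.8% of the marrow counts. Of the 100 genes with the most counts in each library, 30 were the same genes.

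**Figure D1:**
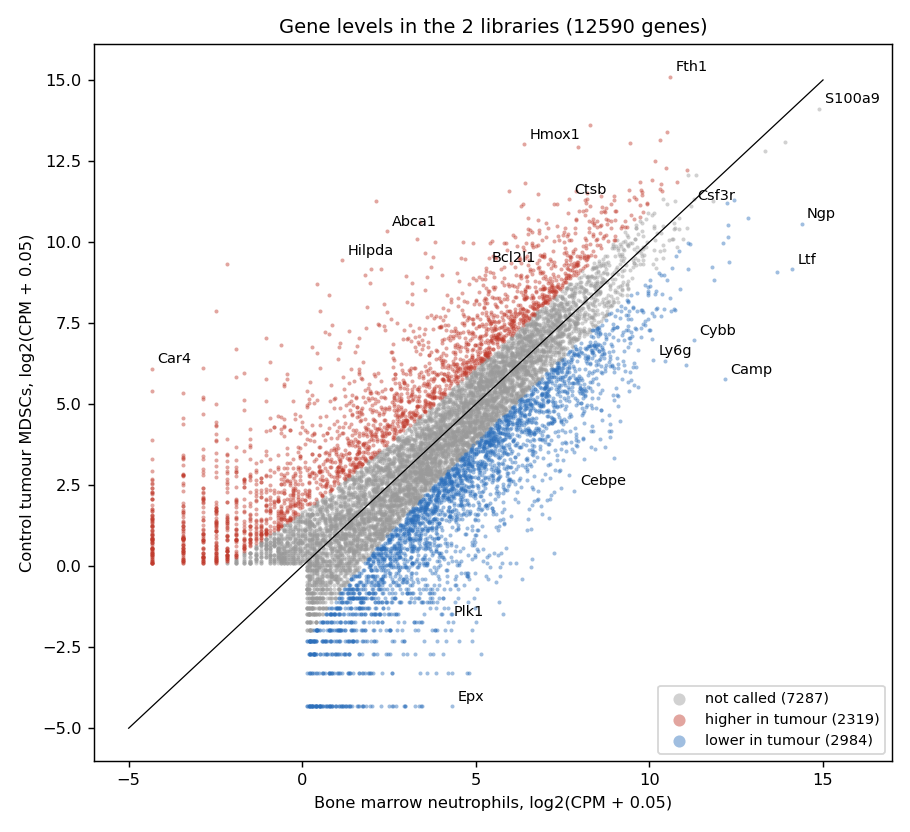
Each point is 1 of the 12590 genes, placed by its log2(CPM + 0.05) in bone marrow neutrophils (x axis) and in control tumour MDSCs (y axis), with the line of equal level. The 2319 genes called higher are red and the 2984 called lower are blue, and bands along the axes hold genes with 0 or few counts in 1 library.

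The cell labels were first set against markers. Of 20 neutrophil identity genes, all were detected in both libraries, 3 were called higher, 10 lower and 7 neither, with a median log2 ratio of -1.01. Csf3r, the receptor for the granulocyte growth factor G-CSF, was at 2226 CPM in tumour MDSCs and 2368 CPM in marrow. Itgam, which encodes CD11b, was at 391 and 547 CPM. The alarmin subunits S100a8 (8725 and 15223 CPM) and S100a9 (17726 and 30389 CPM) were 1.74-fold and 1.71-fold lower in the tumour library. These 4 genes stayed within 2-fold under TMM scaling; with total counts as the scale, S100a8 and S100a9 passed the call, at log2 ratios of -1.04 and -1.02. Ly6g, the surface protein by which mouse neutrophils are usually stained, was at 82.2 CPM in tumour MDSCs and 1099.8 CPM in marrow, 13.4-fold lower (interval 12.7 to 14.1).

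Markers of other cells also differed between the libraries. Where a sum is also given without a member, that member was chosen after its values were seen, so the direction of the reduced sum partly follows from the choice. The B and plasma cell list of 19 genes summed to 45.1 CPM in tumour MDSCs and 264 CPM in marrow, or 9.78 and 262 CPM without Sdc1, the sole member called higher; 17 of the 18 members past the filter were called lower, and Rag1, Vpreb1, Vpreb3, Igll1 and Mzb1 were listed at 0 in the tumour library. The eosinophil, basophil and mast cell list summed to 3157 CPM in tumour and 1216 CPM in marrow, and without Hdc and Siglecf, its 2 members called higher, the direction turned, to 14.7 and 349 CPM. Of its 16 members, 13 were called lower. Epx, the eosinophil peroxidase, had 0 tumour and 458 marrow counts, at least 129-fold lower. Prss34, a basophil protease, had 6 and 1280 counts.

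Of 11 erythroid and platelet genes past the filter, 8 were called lower and 1 higher, and the sum over the list of 16 was 86.3 CPM in tumour and 149.9 CPM in marrow, or 18.3 and 113 CPM without Tfrc, the transferrin receptor. Of the monocyte and macrophage list, 7 of 16 members past the filter were called higher and 5 lower, and the list of 18 summed to 1840.1 CPM in tumour and 13927 CPM in marrow. Without Lyz2, a lysozyme gene that neutrophils express too, the direction turned, to 1295 and 747 CPM. Cd68, a lysosomal glycoprotein abundant in macrophages, was 14.2-fold higher (345 against 24.3 CPM). Cd163, of the same list, was lower, at a log2 ratio of -3.69, but fell short of 2-fold with FPKM plus 1. Of 15 epithelial markers chosen, 8 were among the counted genes. Of 5 epithelial markers past the filter, 3 were called higher and none lower (median log2 3.21, or 1.07 with FPKM plus 1). Krt7 went the other way, at a log2 ratio of -1.47, and passed the call for lower with total counts, at -1.70. The median level of the 5 was 3.38 CPM in tumour and 0.347 CPM in marrow. Epcam had 48 tumour counts and 0 marrow counts, and the list of 8 summed to 23 CPM and 11 CPM, or 16 and 5.51 CPM without Cdh1. The part of these other cells in the differences below was not tested.

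Promoter letters were read for several of the gene groups, to show what members share beyond their level. Windows of 300 bases, 250 before and 50 after a start site, were taken from RefSeq (GRCm38.p6), the first listed for each symbol; 9117 of the 12590 genes had one. A match on either strand is a description of letters, not a bound site. In capitals below are the C/EBP letters TTGCNNAA in 3 specific granule genes, the CHR letters TTTGAA and the CCAAT box in 3 mitosis genes, the NF-kappaB letters GGANTTTCC in 3 neutrophil-attracting chemokines, the hypoxia element core ACGTG in 2 hypoxia genes, and the interferon element letters TTCNNTTTC in 2 interferon-stimulated genes. ACGTG also lies inside the E-box CACGTG, and repeats of the interferon letters can overlap each other.
Ltf (chr9:111019197-111019244, plus strand): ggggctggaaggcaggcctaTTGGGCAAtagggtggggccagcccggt
Ngp (chr9:110419650-110419824, plus strand): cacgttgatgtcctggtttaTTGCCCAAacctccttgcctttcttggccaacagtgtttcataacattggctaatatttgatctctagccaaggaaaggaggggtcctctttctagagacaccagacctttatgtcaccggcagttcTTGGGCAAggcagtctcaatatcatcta
Lcn2 (chr2:32387928-32387975, minus strand): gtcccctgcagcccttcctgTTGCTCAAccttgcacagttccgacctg
Plk1 (chr7:122159401-122159484, plus strand): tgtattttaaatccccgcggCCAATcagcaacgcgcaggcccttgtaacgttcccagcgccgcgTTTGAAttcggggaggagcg
Ccnb2 (chr9:70421525-70421741, minus strand): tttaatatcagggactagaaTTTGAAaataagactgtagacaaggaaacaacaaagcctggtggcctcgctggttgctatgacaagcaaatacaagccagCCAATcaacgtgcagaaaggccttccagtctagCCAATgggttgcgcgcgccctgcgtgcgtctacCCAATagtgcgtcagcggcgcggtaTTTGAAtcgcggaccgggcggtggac
Cdc20 (chr4:118437327-118437416, minus strand): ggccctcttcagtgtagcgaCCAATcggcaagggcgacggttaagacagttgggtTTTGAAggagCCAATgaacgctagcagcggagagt
Cxcl1 (chr5:90891155-90891203, plus strand): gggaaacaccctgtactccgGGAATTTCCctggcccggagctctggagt
Cxcl2 (chr5:90903783-90903831, plus strand): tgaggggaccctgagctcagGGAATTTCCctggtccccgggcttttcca
Cxcl3 (chr5:90786009-90786057, plus strand): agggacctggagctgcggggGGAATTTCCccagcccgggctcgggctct
P4ha1 (chr10:59323260-59323304, plus strand): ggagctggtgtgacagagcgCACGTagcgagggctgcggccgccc
Bnip3 (chr7:138909589-138909634, minus strand): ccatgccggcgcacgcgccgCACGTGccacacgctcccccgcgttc
Ifit1 (chr19:34640760-34640833, plus strand): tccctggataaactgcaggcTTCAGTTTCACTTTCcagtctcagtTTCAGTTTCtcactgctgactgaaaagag
Gbp5 (chr3:142496750-142496798, plus strand): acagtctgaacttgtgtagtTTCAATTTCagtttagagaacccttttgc

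Of 31 mitosis genes with a window, 23 (74.2%) held the CHR letters and 24 (77.4%) a CCAAT box, against 12.3% and 38.7% of all 9117 genes past the filter and 17.9% and 37.4% of all windows in the table. The CCAAT box was about as common in MHC class I presentation genes, at 11 of 14 (78.6%), and was in 17 of 26 DNA replication genes (65.4%). The C/EBP letters were in 5 of 14 specific granule windows (35.7%), against 8.58% of genes past the filter and 10.8% of all windows. They were not particular to that list. Neutrophil identity genes held them in 8 of 19 windows (42.1%) and early maturation genes in 7 of 19 (36.8%). These lists recount some of the same windows: Ltf, Ngp and Lcn2 are on each of them, and Anxa1 is on the early list. Azurophil granule genes held them in 2 of 8 (25%), gelatinase granule genes in 3 of 12 (25%) and invasion and matrix genes in 4 of 13 (30.8%). Ltf carried them 75 bases and Lcn2 216 bases before the start, and Ngp at 138 and 11 bases before it. The NF-kappaB letters were in 4 of 9 chemokine windows (44.4%), those of Cxcl1, Cxcl2, Cxcl3 and Cxcl10, against 1.39% of genes past the filter and 1.25% of all windows. In Cxcl1, Cxcl2 and Cxcl3 the match read GGAATTTCC and lay 70, 96 and 72 bases before the start.

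The hypoxia core was in 9 of 15 hypoxia genes (60%) and 11 of 22 glycolysis genes (50%), against 26.4% of genes past the filter and 19.6% of all windows. Other lists held it often too. It was in 5 of 12 glycogen and pentose phosphate genes (41.7%) and 10 of 23 other stress regulators (43.5%). Lysosomal genes held it in 9 of 22 windows (40.9%) and tRNA synthetase genes in 4 of 9 (44.4%). The interferon letters were in 19 of 27 interferon-stimulated genes (70.4%), against 7.55% and 8.56%. Across all called genes, the NF-kappaB letters were in 2.7% of the genes called higher and 0.876% of those called lower. The hypoxia core was in 30.8% and 21.5%, and the C/EBP letters in 8.76% and 9.38%. Among genes higher at a bound of 10-fold the hypoxia core was in 27%, beside 27.1% of uncalled genes. The interferon letters were in 8.15% of genes called higher and 7.36% of those called lower, the CHR letters in 11.3% and 14.5%, and the CCAAT box in 38.8% and 40.4%. The AP-1 letters TGANTCA were in 9.38% of the genes called higher, 4.69% of those called lower and 5.43% of all genes past the filter.

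**Figure D2:**
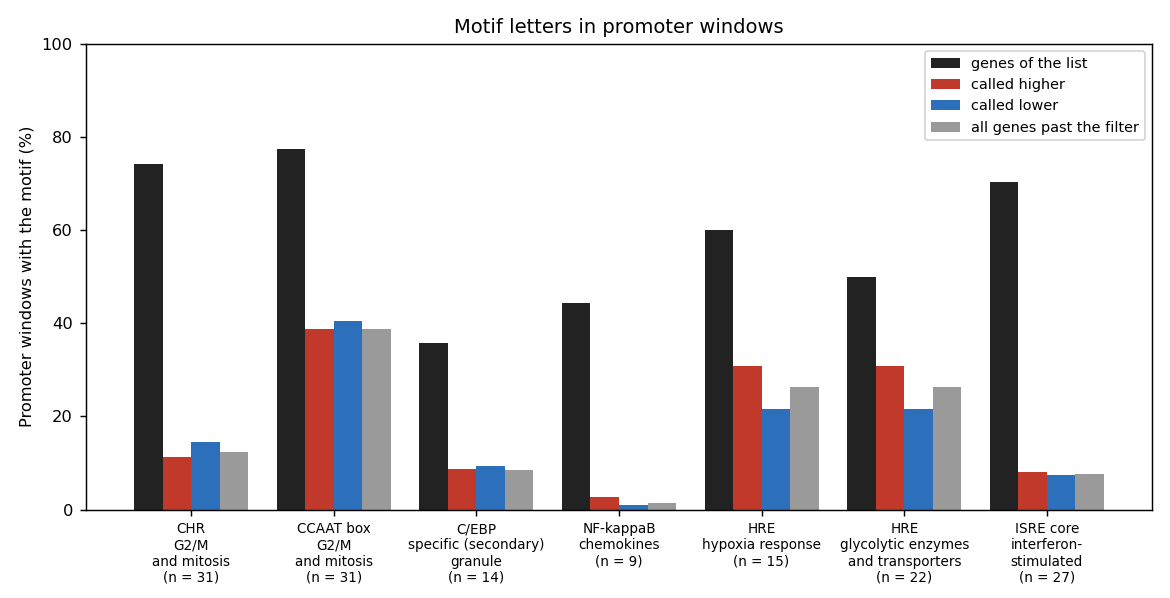
Bars give the percentage of promoter windows that hold each motif's letters on either strand, for the members of the list named under the bars (n is the members with a window), the genes called higher, the genes called lower and all genes past the filter. The list bars stand at 35.7% to 77.4%, above the bars for genes called higher, called lower and all genes past the filter in each group.

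Azurophil and specific granule genes were mostly called lower, and gelatinase granule genes were not. The median log2 ratios were -3.51, -2.84 and -0.25; with FPKM plus 1 the order of azurophil and specific granules turned, at -2.41 and -2.86, and without the filter they were -2.89 and -2.70. Of 10 azurophil granule genes past the filter, 8 were called lower and 2 higher, beside a median log2 ratio of -0.17 over all genes. Elane, neutrophil elastase, had 5 counts in tumour MDSCs and 736 in marrow, 113-fold lower (interval 53.2 to 385). Mpo, myeloperoxidase, had 15 and 1198 counts, 65.5-fold lower. Ctsg, cathepsin G, had 1 and 330 counts, a ratio of 187 with an interval of 49.8 to 11069.8. These 3 defining genes were nearly absent from the tumour library and low in marrow too, at 14.3 to 51.9 CPM. The members called higher were Srgn, the proteoglycan core that packs granule proteins and is also made by many mature leukocytes (8467 against 701 CPM), and Ctsc, the protease that activates granule serine proteases. The whole list summed to 8671 CPM in tumour and 1343 CPM in marrow, and without Srgn and Ctsc the direction turned, to 27.9 and 612 CPM.

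Specific granule genes made the larger shift in counts. Of 17 past the filter, 15 were called lower and none higher, with a median log2 ratio of -2.84, and the list took 8.53% of all marrow counts and 0.693% of tumour counts. Ltf, lactoferrin, was at 571 CPM in tumour MDSCs and 17724 CPM in marrow, 31-fold lower (interval 30.4 to 31.6). Camp, the precursor of the antimicrobial peptide cathelicidin, was at 54.4 and 4609 CPM, 84.7-fold lower (79.8 to 90.1). Ngp, neutrophilic granule protein, was at 1509 and 21372 CPM, 14.2-fold lower. Lcn2, which traps iron-bearing siderophores, was 4.25-fold lower, at 1718 and 7297 CPM. The 2 members not called were Wfdc21 (log2 ratio -0.82) and Slpi, a protease inhibitor, at 0.29. Ltf, Ngp, Lcn2, Anxa1 and Slpi are the 5 whose windows hold the C/EBP letters, so that group includes the uncalled Slpi.

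Gelatinase granule and secretory vesicle genes were mixed. Of 15 past the filter, 4 were called higher, 4 lower and 7 neither, with a median log2 ratio of -0.25. Over all genes, 18.4% were called higher and 23.7% lower. The matrix proteases Mmp8 (451 against 3717 CPM) and Mmp9 (1137 against 4880.4 CPM) were lower, as was Padi4, the enzyme that citrullinates histones for extracellular traps, at 76.6 against 746 CPM. Slc11a1, a phagosomal metal transporter, was 6.87-fold higher, and the Fc receptor gene Fcgr3 was 2.98-fold higher. The formyl peptide receptors Fpr1 and Fpr2 differed by 1.07-fold and 1.19-fold.

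Lists of genes used early and late in maturation separated. Of 22 early genes, 19 were called lower and none higher (median log2 -2.66); 9 of them are also on the specific granule list, so the lists are not independent. Beyond granules, the early genes included Adpgk, an ADP-dependent glucokinase, at 73.1 CPM in tumour MDSCs and 2115 CPM in marrow, and Serpinb1a, an inhibitor of neutrophil serine proteases, at 20.9 and 469 CPM. Of 22 late genes, 12 were called higher and 4 lower (median log2 1.18). This list is not independent of others here. Wfdc17 and Ifitm1 are also on the granulocytic MDSC list, Fth1 on the NRF2 and iron list and Srgn on the azurophil list. Wfdc17, a secreted whey acidic protein, was at 1034 and 14 CPM, 73.5-fold higher (interval 66 to 82.4), and Ifitm1, an interferon-induced membrane protein, was at 1352 and 90.1 CPM. The 4 late genes called lower included genes of surface proteins: Cxcr2 (405 against 946 CPM), the receptor for the Cxcl1 family, Cd101 (2.19-fold lower) and Jaml (13.5-fold lower). The MDSCs were thus lower in early genes without being higher in every late gene.

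**Figure D3:**
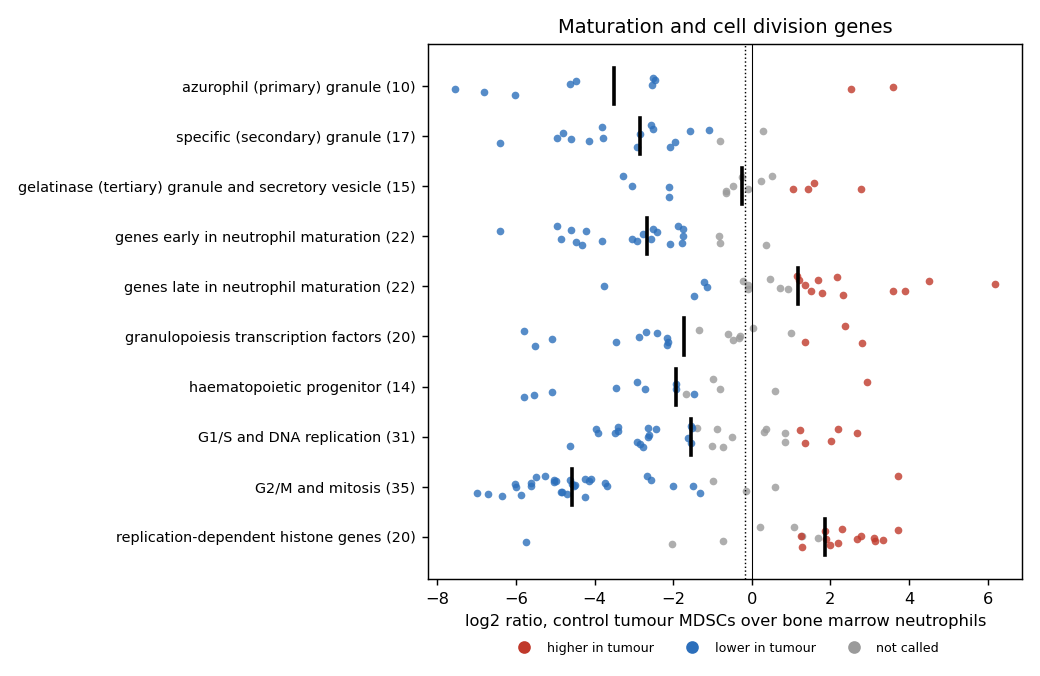
Each point is 1 gene past the filter, placed by its log2 ratio of control tumour MDSCs over bone marrow neutrophils, in rows by gene list with the number of genes in parentheses. Thick ticks are list medians, from -4.58 for mitosis genes to 1.87 for histone genes, and the dotted line is the median of all genes, -0.17.

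Of 20 transcription factors of granulopoiesis, 10 were called lower, 3 higher and 7 neither, with a median log2 ratio of -1.74. Cebpe, which drives specific granule genes, was at 4.97 CPM in tumour MDSCs and 229 CPM in marrow, 45.9-fold lower (interval 37.7 to 57). Gfi1, a repressor needed for neutrophil commitment, was at 2.97 and 33 CPM, 11-fold lower. Myb, a factor of cycling progenitors, had 11 and 748 counts, 55.1-fold lower (32 to 116). Cebpb, the C/EBP factor of emergency granulopoiesis and inflammation, moved the other way, at 2718 and 389 CPM, 6.98-fold higher (6.83 to 7.14). Cebpa was 2-fold higher with an interval of 1.87 to 2.14 and was not called. Of 14 progenitor genes past the filter, 9 were lower and 1 higher. Erg, a stem cell and endothelial factor, was 11-fold lower, and Gata2, which also serves mast cells and basophils, was 33.7-fold lower.

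Genes of cell division were low in tumour MDSCs. Of 35 G2/M and mitosis genes, all past the filter, 31 were called lower and 1 higher, with a median log2 ratio of -4.58, or -2.38 with FPKM plus 1. Plk1, the kinase that sets up the spindle, had 5 tumour and 420 marrow counts, 64.7-fold lower (interval 30.2 to 220.2). Top2a, which untangles replicated DNA, was at 4.04 and 133 CPM, 32.6-fold lower. Anln, a scaffold of the contractile ring, had 4 and 676 counts, 127-fold lower (55.6 to 527). Mki67, the usual proliferation marker, was lower by less, at 51.1 and 326 CPM. Aurka, the target of alisertib, was at 9.68 and 27.1 CPM, 2.8-fold lower (2.38 to 3.32), and at 10.3 CPM in the alisertib library.

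The exceptions, like others named below, were picked after their values were seen. Ccnf, cyclin F, had 4056 tumour and 361 marrow counts, 13.3-fold higher (interval 11.9 to 14.8). Cenpa, Kif2c and Cks2 were not called, at log2 ratios near 0 for Cenpa (-0.14), 0.59 for Cks2 and a 2-fold lower level for Kif2c (interval 1.61 to 2.5). The promoter windows of Ccnf, Cenpa and Kif2c hold the CHR letters too.

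DNA replication genes were less uniform: of 31 past the filter, 17 were lower, 5 higher and 9 neither (median log2 -1.54, or -0.73 with FPKM plus 1). E2f2, an activator of replication genes, was 15.1-fold lower, Rrm2, a subunit of ribonucleotide reductase, 11.2-fold lower and Uhrf1, which maintains DNA methylation, 24.7-fold lower. The 5 called higher included the origin factors Mcm10 (4.55-fold) and Cdt1 (4.06-fold), Pcna (2.55-fold) and Chaf1b (2.36-fold). Of 20 replication-dependent histone genes past the filter, 13 were called higher and 1 lower (median log2 1.87), with the linker histone Hist1h1c at 1061 and 215 CPM. These histone genes have close copies, so reads can be shared between them, and 29 of the 49 in the table did not pass the filter. Beside these genes, most B cell, erythroid, basophil and eosinophil markers past the filter were called lower (17 of 18, 8 of 11 and 13 of 16 by list, as above), and their part in the division result was not tested.

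**Figure D4:**
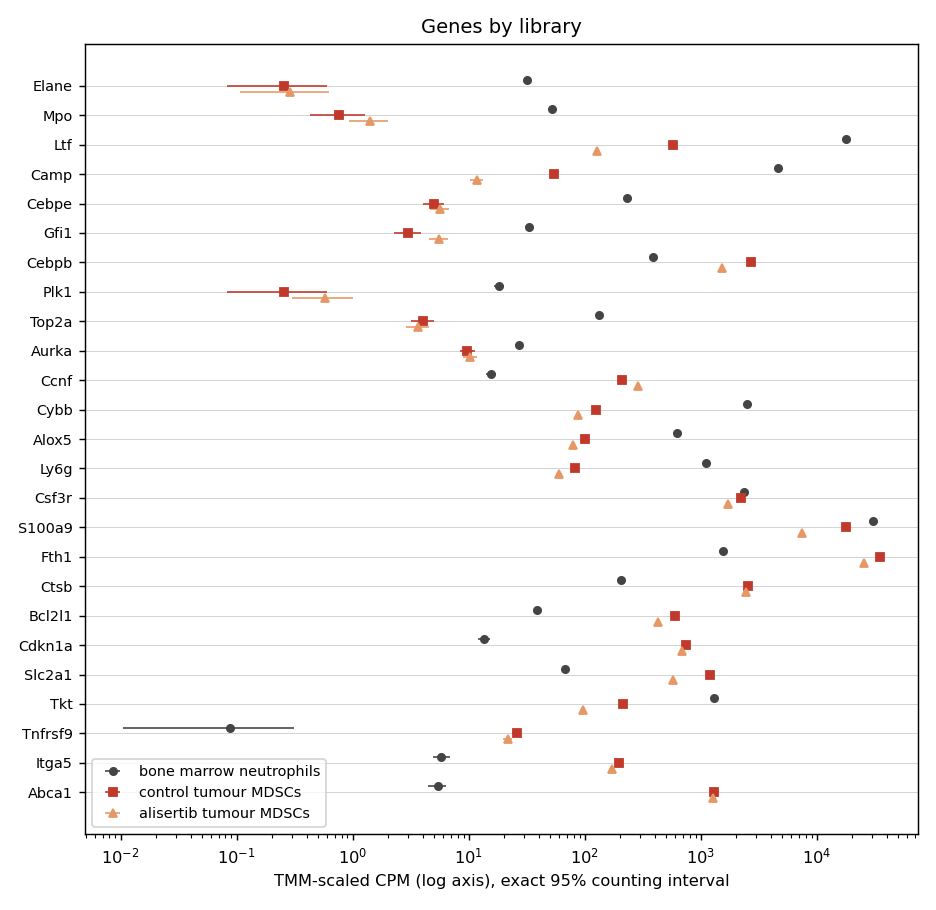
TMM-scaled CPM on a log axis for 25 genes in bone marrow neutrophils (circles), control tumour MDSCs (squares) and alisertib tumour MDSCs (triangles), with exact 95% counting intervals, often narrower than the marker. Elane, Plk1 and Cebpe are lower in the tumour libraries than in marrow, Csf3r differs by 1.06-fold between control MDSCs and marrow, and Abca1, Itga5 and Cdkn1a are higher in the tumour libraries.

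A list of marrow retention and egress genes, which also holds adhesion genes such as Icam1, Icam2 and Pecam1, was mixed. Of 17 past the filter, 7 were called higher and 5 lower. Its firmest call was Icam1, which was higher. Cxcr4, the retention receptor, was at 328 CPM in tumour MDSCs and 591 CPM in marrow, 1.8-fold lower and not called; its log2 ratio was -0.85, or -1.09 and past the call with total counts. S1pr4, a sphingosine-phosphate receptor, was 13.9-fold lower and the integrin subunit gene Itga4 5.99-fold lower. Among chemoattractant receptors, 6 of 17 were higher and 4 lower. Beside both gene groups, the shares over all genes were 18.4% higher and 23.7% lower. Ptafr, the platelet-activating factor receptor, was 7.2-fold higher, and Ccr1 3.15-fold higher at 1636 CPM.

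Of 32 cytokine receptor genes past the filter, 16 were called higher, 2 lower and 14 neither (median log2 1.18, or 0.65 with FPKM plus 1). The higher genes included several of the TNF receptor family. Tnfrsf9, a costimulatory receptor, had 503 tumour and 2 marrow counts, a ratio of 238 with an interval of 81.8 to 2459. Tnfrsf1b, a TNF receptor, was at 1713 and 91.3 CPM, 18.8-fold higher. Tnfrsf22, Tnfrsf23 and Tnfrsf26, neighbouring copies between which reads may be shared, were 42.3-fold, 30.5-fold and 62.8-fold higher. Csf2rb2, a beta subunit close in sequence to Csf2rb, was 14.3-fold higher, while Csf1r and Csf3r differed by 1.01-fold and 1.06-fold. The 2 called lower were Il6ra (2.41-fold) and Il18r1 (3.66-fold).

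Of 25 cytokine and growth factor genes past the filter, 18 were higher and 4 lower (median log2 2.60), and of 15 chemokines 13 were higher and none lower (median 5.31, or 3.92 with genes at 0 marrow counts set at their bound, or 2.02 with FPKM plus 1). Among ligands of the EGF receptor, Ereg had 724 tumour and 2 marrow counts, a ratio of 342 with an interval of 118 to 3537, Hbegf had 672 and 10 counts, and Areg had 290 and 0 counts, at least 114-fold higher. Ccl24, an attractant of eosinophils, had 208 and 4 counts, and Cxcl16, a transmembrane chemokine, 351 and 10. The 4 called lower were Il6 (6.1-fold), Il16 (4.02-fold), Hgf (3.7-fold) and the B cell survival factor Tnfsf13b, which had 65 tumour and 2114 marrow counts, 27.3-fold lower (21.5 to 35.8).

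Hypoxia genes and glycolysis differed in breadth. Of 18 hypoxia genes past the filter, 16 were higher and none lower (median log2 3.33). Hilpda, which coats lipid droplets and blocks their breakdown, was at 698 CPM in tumour MDSCs and 2.17 CPM in marrow, 319-fold higher (interval 244 to 434). Fam162a, a mitochondrial protein induced by low oxygen, was 37.6-fold higher, and Hif1a itself, at 1254 and 113 CPM, was 11.1-fold higher. Of 23 glycolysis genes, 12 were higher and 3 lower (median log2 1.11). The glucose transporter Slc2a1 was at 1187 and 67.3 CPM, 17.6-fold higher, and the phosphofructokinases Pfkp and Pfkl were 17.7-fold and 8.94-fold higher. The lower genes were isoforms of the same steps: Slc2a3 (2.73-fold), Hk3 (2.54-fold) and Pfkfb4 (3.74-fold), beside Slc2a1, Hk2 (2.25-fold) and Pfkfb3 (6.33-fold), which were higher.

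Of 12 enzymes that draw on glycogen or feed the pentose phosphate pathway, 4 were lower, 2 higher and 6 neither (median log2 -0.68), beside 23.7% lower and 18.4% higher over all genes. Tkt, transketolase, was at 211 CPM in tumour MDSCs and 1290 CPM in marrow, 6.12-fold lower. Pygl, glycogen phosphorylase, was at 375 and 1899 CPM, 5.07-fold lower, and G6pdx, which makes the NADPH used by the oxidase, was 4.41-fold lower. The higher genes were the phosphoglucomutases Pgm1 (3.2-fold) and Pgm2 (3.64-fold).

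The oxidase itself was lower in part. Of 16 oxidase and oxidant-handling genes, 7 were called lower and 2 higher (median log2 -0.80). The list overlaps those of maturation: Mpo is also an azurophil granule gene and Cybb is also on the early list. Cybb, the catalytic subunit of the phagocyte NADPH oxidase, was at 125 CPM in tumour MDSCs and 2477 CPM in marrow, 19.9-fold lower (interval 19.1 to 20.7). Ncf1, a cytosolic subunit, was 2.31-fold lower, and Hvcn1, the proton channel that supports the burst, 22.9-fold lower. Sod2, the mitochondrial superoxide dismutase, was 24-fold higher, and Prdx1 4.54-fold higher. In the NRF2 and iron list, 14 of 20 were higher and 2 lower (median 2.99). The ferritin chains carried most of its counts: Fth1 was at 35223 and 1539 CPM, 22.9-fold higher (22.6 to 23.1), and per length it was the top gene of the tumour library at 39618 FPKM. By the same unit S100a9 led the marrow library, at 57581 FPKM.

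Of 13 prostaglandin and leukotriene enzymes past the filter, 6 were lower, 3 higher and 4 neither (median log2 -0.68, or -0.42 with FPKM plus 1). The leukotriene enzymes Alox5 (100.2 CPM in tumour, 622 CPM in marrow) and Lta4h (43.2 and 396 CPM) were 6.21-fold and 9.17-fold lower, while Alox5ap, the 5-lipoxygenase partner, differed by 1.03-fold. Alox15, a lipoxygenase abundant in mouse eosinophils and macrophages, had 20 and 1239 counts, 51.2-fold lower, beside the eosinophil markers called lower above. On the prostanoid side, Ptgs2 was 3.22-fold higher and Ptgs1 2.41-fold lower. Tbxas1, the thromboxane synthase, was 7.21-fold lower, Ptges2, a prostaglandin E synthase, 4.39-fold lower, and Hpgds, a prostaglandin D synthase, 24.4-fold higher (interval 15.4 to 43.5).

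Of 27 lysosomal genes, 17 were called higher and 3 lower (median log2 1.57). Ctsb, cathepsin B, was at 2566 CPM in tumour MDSCs and 205 CPM in marrow, 12.5-fold higher (interval 12.1 to 12.9). Ctsl was 13.4-fold higher, the alpha-galactosidase gene Gla 17.2-fold higher and Lgmn, the legumain protease, 14-fold higher. The 3 called lower were Ctsg, which belongs to the azurophil granule, Ctsh (2.5-fold) and Glb1 (5.68-fold). Cd68 is in this list as well as among the macrophage markers.

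Lipid genes had few but large differences: 8 of 25 past the filter were higher, 3 lower and 14 neither (median log2 0.80). Abca1, which exports cholesterol, was at 1285 CPM in tumour MDSCs and 5.38 CPM in marrow, 238-fold higher (interval 200.4 to 288). Plin2, a lipid droplet coat, was 9.6-fold higher and the scavenger receptor Msr1 7.94-fold higher. Lpl, lipoprotein lipase, and Scd1, a fatty acid desaturase, were 8.3-fold and 8.8-fold lower.

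Survival genes were higher on each side of the balance. Of 33 past the filter, 17 were higher and 5 lower (median log2 1.11). Bcl2l1, which encodes the survival protein BCL-XL, was at 593 CPM in tumour MDSCs and 39 CPM in marrow, 15.2-fold higher (interval 14.2 to 16.3). Bcl2l11, which encodes the death-promoting BIM, was at 744 and 46.6 CPM, 16-fold higher (15 to 17). Cdkn1a, the cell cycle inhibitor p21, was 55.5-fold higher (49.6 to 62.3), and the survival gene copies Bcl2a1a and Bcl2a1d, between which reads may be shared, 48.7-fold and 29.4-fold higher. Mcl1, on which neutrophils depend, was 1.6-fold higher and not called. Birc5, a mitosis gene that encodes survivin, was 28.5-fold lower.

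Adhesion genes were mixed and matrix genes mostly higher. Of 23 integrin and adhesion genes, 7 were higher and 8 lower (median log2 -0.48, or -0.30 with FPKM plus 1). Itga5, the fibronectin receptor subunit, was at 198 CPM in tumour MDSCs and 5.81 CPM in marrow, 34-fold higher (interval 28.7 to 40.9), while Itgb3 was 11.6-fold lower, Itgb2l 28.1-fold lower and Ceacam1 7.3-fold lower. Of 20 invasion and matrix genes, 13 were higher and 5 lower (median 2.09). Mmp12, the macrophage elastase, had 822 and 0 counts, at least 324-fold higher, Mmp14 had 280 and 3 counts, a ratio of 94.6 with an interval of 37.3 to 538, and Mmp19 was 72.2-fold higher. The proteases stored in neutrophil granules, Mmp8 and Mmp9, were lower.

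**Figure D5:**
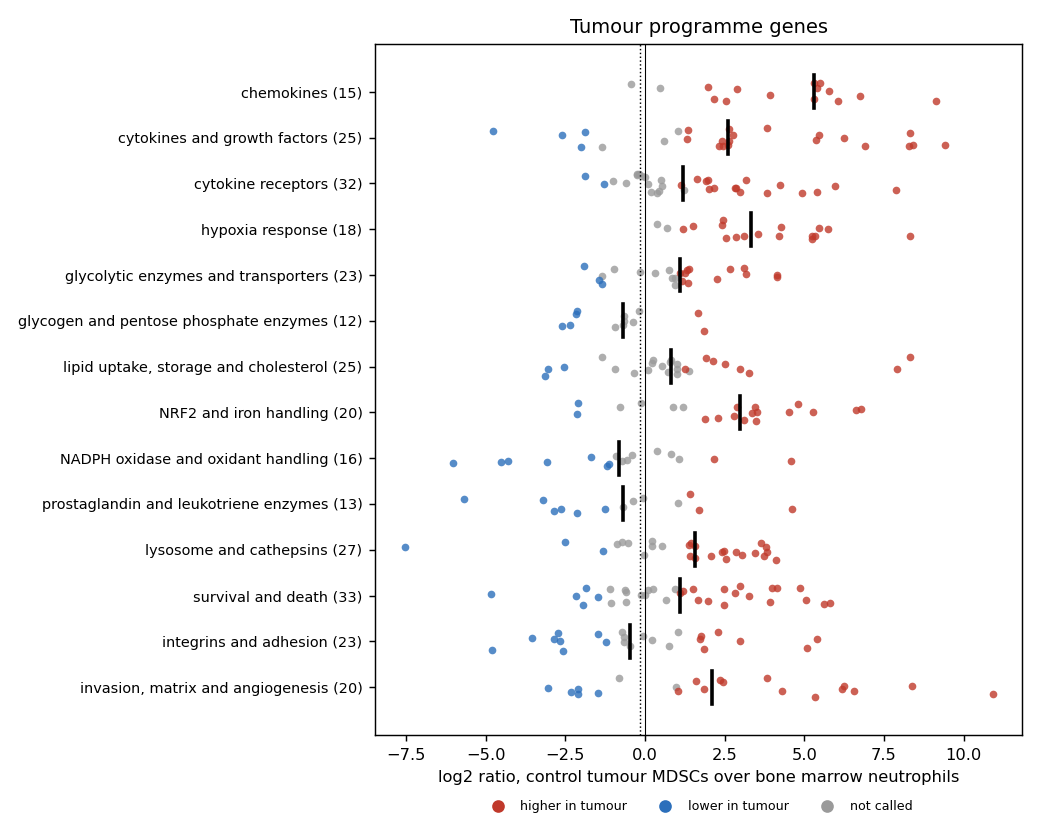
Each point is 1 gene past the filter, placed by its log2 ratio of control tumour MDSCs over bone marrow neutrophils, in rows by gene list with the number of genes in parentheses. List medians (thick ticks) run from -0.80 for oxidase genes to 5.31 for chemokines, and the dotted line marks the median of all genes, -0.17.

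Checkpoint, inhibitory receptor and antigen presentation genes were not all higher. Of 15 checkpoint and inhibitory receptor genes past the filter, 5 were higher and 3 lower (median log2 -0.42, or -0.66 with total counts and 0.57 without the filter). Pdcd1lg2, which encodes the PD-1 ligand PD-L2, had 467 tumour and 1 marrow counts, a ratio of 368 with an interval of 98.5 to 21829.9, and Pvr, a ligand of TIGIT, was 16.7-fold higher. Clec12a, an inhibitory lectin of myeloid cells, was 17.9-fold lower (18 against 322 CPM). Of 16 arginine, nitric oxide and polyamine genes, 11 were higher and none lower; beside Arg1 and Nos2, Slc7a2, an arginine importer, had 168 and 1 counts, a ratio of 133 with an interval of 35.1 to 7883, and Gch1, which makes the cofactor of nitric oxide synthase, was 11.7-fold higher. Arg2 was 4.12-fold higher (589 against 143 CPM). Of 12 genes of MHC class II presentation past the filter, 7 were higher and 2 lower. The list also holds Ctss, Cd80 and Cd86, which are not MHC genes, and Cd80 and Cd86 are among those higher. H2-Eb1 was at 44.2 and 8.02 CPM and Cd86, a costimulatory ligand, at 40.2 and 8.06 CPM.

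Among the genes with the firmest ratios were some outside these lists. Car4, a membrane carbonic anhydrase, had 1332 tumour and 0 marrow counts, at least 524-fold higher. Tgm2, a transglutaminase that crosslinks proteins, was at 1573 and 10.5 CPM, 149.7-fold higher (interval 132 to 171). F10, coagulation factor X, was at 569.5 and 3.86 CPM, 147-fold higher, and Igfbp6, which binds insulin-like growth factors, had 2029 and 5 counts, 436-fold higher (205 to 1478). Hspa1a, a heat shock protein with a near-identical copy, was 198-fold higher. On the other side, Nedd4, a ubiquitin ligase, was at 1.28 and 151 CPM, 116-fold lower (80 to 183). Fcnb, a ficolin of immature neutrophils, had 22 and 2246 counts, 84.5-fold lower, and Ncam1 and Drd2, genes better known from neurons, had 14 and 1851 counts and 1 and 423 counts.

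Regulators of the immediate response were higher as well. Of 25 NF-kappaB and AP-1 genes, 20 were called higher and none lower (median log2 1.85), and of 30 other stress and activation regulators 23 were higher and none lower (median 1.86). Maff, a small MAF factor, was 46.7-fold higher, Relb, an NF-kappaB subunit, 9.02-fold higher and Atf3, a stress factor, 12.7-fold higher. The nuclear receptor gene Nr4a3 was 29.8-fold higher and the phosphatase gene Dusp4 29.5-fold higher. Of 22 pattern recognition receptors past the filter, 16 were higher and 2 lower (median 1.41), with the lectin Clec4n 20.2-fold and the DNA sensor Aim2 11.7-fold higher. Of 35 interferon-stimulated genes, 18 were higher and 3 lower (median 1.36), and of 22 genes reported for granulocytic MDSCs, 18 were higher and 2 lower (median 2.38). The MDSC list shares members with other lists, such as Wfdc17 and Ifitm1 with the late genes and Clec4n with the pattern recognition receptors.

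Housekeeping groups differed little by comparison. Of 86 ribosomal protein genes, 6 were called higher and none lower (median log2 0.40, or 0.16 with total counts), of which Rpl41, Rps2 and Rps28 lost the call with total counts, and 10 mitochondrially encoded genes had no call (median 0.42, or 0.19 with total counts). Of 78 nuclear genes of oxidative phosphorylation, 10 were lower and 1 higher (median -0.54), beside 23.7% lower and 18.4% higher over all genes. The higher one, Cox4i2, the lung and low-oxygen isoform of a cytochrome oxidase subunit, had 104 and 0 counts, at least 40.9-fold higher. Gene length moved with the ratio: over 4 equal bins of annotated exon length with medians of 1544, 3234, 5186 and 8786 bases, the median log2 ratio was 0.12, -0.15, -0.29 and -0.35, and its part in the results was not tested. By annotated type, 27.7% of 253 lincRNA genes were called higher and 18.6% lower, beside 18.4% and 23.7% over all genes. Other noncoding types tilted the same way, with 24.6% and 15.7% of 293 antisense genes and 32.4% and 2.94% of 34 miRNA genes.

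The alisertib library shares the marrow library as its reference, so its values are given only side by side. Against marrow, the median log2 ratio of specific granule genes was -2.84 in control and -4.39 in alisertib tumour MDSCs, and that of early maturation genes -2.66 and -4.43. Ltf was at 571 CPM in control and 126 CPM in alisertib MDSCs, Camp at 54.4 and 11.7 CPM, and Ngp at 1509 and 186 CPM. For mitosis genes the medians were -4.58 and -4.39, for hypoxia genes 3.33 and 2.61, and for glycolysis genes 1.11 and 0.67, with Slc2a1 at 1187 and 575 CPM. For lysosomal genes they were 1.57 and 1.57.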

How the data were processed

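RNA from sorted cells was sequenced as 3 libraries, 1 per group. Per the submitters' processing notes, CASAVA 1.8 and STAR 2.5.1b were used with mm9 and mm10; the sources used here name no counter, annotation or strand setting. The authors deposited a table of raw gene counts and a table of FPKM values. Gene names came from a table that paired 19648 of the 19723 gene IDs with a symbol.

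A replicated test was not possible with 1 library per group, so no p-value is given. Counts were scaled with TMM factors (edgeR 4.0.16) over the 3 libraries. A log2 ratio is of counts plus 0.5 over scaled library sizes. Intervals are exact Clopper-Pearson 95% intervals of the ratio given the summed count (scipy 1.17.1), and reads are not independent molecules, so they cover counting error only. The routine was tested on simulated data. The alternatives tried were other scalings (DESeq2 1.42.0 size factors among them), filters, call rules, pseudocounts and the FPKM table, with 1 or 0.1 added.

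Named genes were the 15 firmest higher and 15 firmest lower genes at 10 CPM or more (passing over unnamed gene models and small RNA loci), the 10 with the most counts in each library, up to 6 of each list, those at 0 in one library with the 10 highest CPM in the other, and a fixed set; any other named gene was chosen after its values were seen. The lists, markers and rule were chosen with earlier results of these data known, so the lists are no independent support. Promoter windows were searched for exact letters on both strands. A few members of the lists are counted but not reported here by name.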

Additional observations from a re-analysis of the deposited data

Results flagged for a closer look

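The deposited FPKM table held 4154 genes with no row in the count table, and none of them entered a comparison above. Of these, 237 had 1 FPKM or more in control tumour MDSCs or marrow neutrophils. A set of 8 had 10 FPKM or more in either library. They included the microRNA loci Mir132 (34 FPKM in control tumour MDSCs, 0.6496 in marrow, 65.22 in alisertib MDSCs), Mir221 (15.22, 0.9026 and 29.06 FPKM) and Mir146 (14.58, 0 and 40.31 FPKM). Trbd1, a short T cell receptor segment, was nearly level at 16.62, 17.86 and 19.49 FPKM. Loci this short give high FPKM from few reads, and the depth behind these values is unknown.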

How the results depend on the processing

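A minimum of 10 CPM in either library left 1506 genes called higher and 1956 lower, from fewer genes tested, and a bound of 4-fold left 1087 and 1297. The other alternatives kept each count within 1.5 times: total counts gave 1910 higher and 3577 lower, TMM factors from the 2 compared libraries 2390 and 2888, DESeq2 size factors 2463 and 2821, no filter 2597 and 3157, a ratio of 2-fold without the bound 3024 and 3906, FPKM plus 1 gave 1878 and 2322, and FPKM plus 0.1 gave 2811 and 3739. Total counts moved every log2 ratio by -0.24 and the median of all genes from -0.17 to -0.44. Of the 5303 called genes, none that was tested under an alternative changed sign there. Of 50 list medians, 7 changed sign under an alternative: dendritic cell markers (1.02), T and NK cell markers (-3.96), fibroblast markers (-1.59) and chemoattractant receptors (0.03) at 10 CPM; T and NK cell markers (-0.10), fibroblast markers (-0.12), proteasome genes (-0.10) and tRNA synthetase genes (-0.07) with total counts; and checkpoint genes (0.57) with no filter. With FPKM plus 1, which pulls low genes towards 0, 16 list medians moved by over 1.5 times without changing sign, among them chemokines (5.31 to 2.02), mitosis genes (-4.58 to -2.38), progenitor genes (-1.94 to -0.48), B and plasma cell markers (-4.96 to -1.69) and eosinophil, basophil and mast cell markers (-5.43 to -2.32). Total counts moved 7 by that much, DESeq2 size factors 5, the 10 CPM minimum 4, no filter 3 and TMM factors from 2 libraries 1. The cause of the sign changes was not tested. No paired analysis was possible because each group is 1 library. Depth limits genes near the floor, where 1 count is worth 0.0512 CPM in the tumour library and 0.0433 CPM in marrow.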

Other observations

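Cd3d, a chain of the T cell receptor complex, had 170 counts in tumour MDSCs and 3143 in marrow neutrophils, 15.6-fold lower (interval 13.4 to 18.4), while the other T cell genes of its list stayed low in both libraries: Cd3g had 20 and 25 counts, Lck 39 and 42, and Trac 13 and 0. The list summed to 33.1 CPM in tumour and 157 CPM in marrow, and without Cd3d, left out after its values were seen, to 24.4 and 20.5 CPM. Among aminoacyl-tRNA synthetases, 4 of 17 were higher and 4 lower, beside 18.4% higher and 23.7% lower over all genes. Of these, Aars, Cars and Sars were 5.16-fold, 3.41-fold and 3.1-fold higher, and Dars, Lars and Vars 7.53-fold, 7.5-fold and 6.74-fold lower. Hdc, which makes histamine, was 3.62-fold higher in tumour MDSCs with 60688 and 19793 counts, in libraries where the basophil and mast cell genes Mcpt8 (14 and 947 counts) and Cpa3 (8 and 215 counts) were lower.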
